A study of Mus musculus with 10 samples.

Results

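The genes described here encode the glutamate receptors and core proteins of the excitatory synapse. They are 30 genes chosen by name: 4 subunits of AMPA receptors, 5 of kainate receptors and 7 of NMDA receptors, 7 metabotropic and delta receptors, 3 vesicular glutamate transporters, and 4 genes for a postsynaptic kinase and scaffold. All 30 were found among the 32506 genes of the count table, and all 30 passed the filter on low counts, which left 16974 genes to test. RNA was sequenced from the lumbar spinal cord of 10 female mice of the FVB strain (FVB/N in the study's methods) at 95 days of age. The 5 SOD1G86R mice were hemizygous for a transgene that overexpresses Sod1 with the amyotrophic lateral sclerosis (ALS) substitution G86R, and had motor symptoms at this age. The study describes their motor weakness as ranging from mild to severe. The 5 wild type (WT) mice were non-transgenic and matched for age and litter. Each library came from the whole lumbar tissue of a single mouse, so that fewer cells of a type and less RNA per cell cannot be told apart.

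Glutamate is the main excitatory transmitter of the spinal cord. Vesicular transporters load it into synaptic vesicles, AMPA and kainate receptors open on binding it to give the fast current, and NMDA receptors let in calcium once the membrane is depolarised. Metabotropic receptors act through G proteins, before and after the synaptic cleft, and the scaffold beneath the membrane holds receptors close to the calcium-activated kinase CaMKII. In ALS, overexcitation of motor neurons by glutamate is a long-studied process, and the calcium entry through AMPA receptors that lack an edited GluA2 subunit (Gria2) is part of that work.

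The AMPA and kainate subunits are paralogs that share their pore, so their sequence bears on whether reads can be told apart between them. The stretches below, of 63 bases each, are the coding sequence around the pore loop, read from GENCODE M21 transcripts on GRCm38. Capitals mark the codon at the Q/R site, which the genome writes as glutamine in every one of them and which the enzyme ADAR2 edits towards an arginine codon in Gria2, Grik1 and Grik2 transcripts.
Gria1: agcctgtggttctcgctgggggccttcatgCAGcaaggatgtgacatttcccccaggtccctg
Gria2: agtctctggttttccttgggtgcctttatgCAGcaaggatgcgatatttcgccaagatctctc
Gria3: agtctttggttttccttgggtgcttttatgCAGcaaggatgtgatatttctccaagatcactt
Gria4: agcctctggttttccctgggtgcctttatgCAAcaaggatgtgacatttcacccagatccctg
Grik1: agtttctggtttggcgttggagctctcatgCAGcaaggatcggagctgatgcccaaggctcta
Grik2: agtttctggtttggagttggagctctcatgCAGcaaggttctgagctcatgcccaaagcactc
Grik3: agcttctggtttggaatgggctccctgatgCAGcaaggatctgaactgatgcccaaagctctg
Grik4: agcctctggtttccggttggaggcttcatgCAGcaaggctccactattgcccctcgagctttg
Grik5: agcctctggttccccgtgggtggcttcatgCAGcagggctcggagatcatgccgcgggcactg
The marked codon is CAG in all stretches but Gria4, where it is CAA. It is residue 600 of the encoded protein in Gria1, 607 in Gria2, 612 in Gria3 and 608 in Gria4, counted from the initiator methionine, and residue 636 in Grik1, 621 in Grik2, 623 in Grik3, 606 in Grik4 and 605 in Grik5. The most alike pair was Gria2 and Gria3, identical at 57 of 63 bases with a longest identical run of 17 bases. Grik1 and Grik2 were identical at 56 of 63 bases, with a longest run of 23. Over whole transcripts, cut into windows of 50 bases, at most 19 windows of a gene, those of Gria2, occurred also in another of the 30 genes. Editing at this codon was not analysed here, since gene counts do not hold it.

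The libraries held between 29333590 and 46003999 counts in WT mice (median 32026898) and between 31494723 and 37080445 in SOD1G86R mice (median 35623961). Sod1, which checks the labels because its counts include the transgene, was at 127 to 209.8 CPM (counts scaled to library size) in WT mice and at 3918 to 6415 CPM in SOD1G86R mice. The lowest of the SOD1G86R values was that of replicate 4, and the other 4 mice were at 4823 to 6415 CPM. Summed levels of cell type markers separated SOD1G86R replicate 4 from its group in several lists. Markers of Schwann cells also set WT replicate 4 apart, at 270% of the WT mean against 41.1 to 76.4% in the other WT mice. Their sums were low, at 4.25 to 28.0 CPM in WT mice. In SOD1G86R replicate 4 they were at 252% and in the other SOD1G86R mice at 76.8 to 130%. Marker genes of sensory ganglion neurons summed to 645% of the WT mean in SOD1G86R replicate 4 and to 86.7 to 89.0% in the other 4 SOD1G86R mice, with Scn10a, a sodium channel of pain-sensing ganglion neurons, at 20.7 CPM in replicate 4. These sums were low as well, at 11.8 to 12.8 CPM in WT mice. Of the 10 markers 5 passed the filter on low counts. In replicate 4 the sum was 79.7 CPM. Neuronal markers summed to 114% of the WT mean in that mouse and to 81.9 to 94.1% in the other 4, against 98.0 to 102% across the WT mice. Microglial markers were at 122% in replicate 4 against 201 to 277% in the others, and astrocyte markers at 99.6% against 149 to 188%. Because SOD1G86R replicate 4 stands apart, the main counts and the results that rest on it are given with and without it. The part that cell composition plays in them was not tested.

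None of the 30 genes passed the test for a difference between SOD1G86R and WT mice. At an adjusted p of 0.01 over all genes, edgeR's quasi-likelihood test called 0 of 30 higher, against 0.866% of all genes tested, and 0 of 30 lower, against 0.253%. DESeq2 likewise called 0 of 30 in either direction (3.67% of its tested genes were higher and 0.544% lower), as did limma voom (0.212% higher and 0.194% lower). At an unadjusted p of 0.05 edgeR placed 1 gene higher, Grm5, against 10.8% of all genes, and 4 lower, Grm8, Dlg4, Grin2c and Camk2b, against 6.33%. The latter count moved with single mice: it was 1 without WT replicate 1 or SOD1G86R replicate 3, 2 without WT replicate 3 or SOD1G86R replicate 2 or 5, and 9 without SOD1G86R replicate 4. Grm5 was no longer under 0.05 without WT replicate 1 or 2 or SOD1G86R replicate 4 or 5. No gene of the 30 had groups that did not overlap, while 3.09% of all genes were higher and 1.84% lower without overlap. The sign of the log2 fold change was negative for 22 of 30 genes and positive for 8, and 52.3% of all genes had a negative sign. The median log2 fold change was -0.05 for the 30 genes and -0.01 for all genes.

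The intervals around these differences were narrow for most of the genes. For 20 of 30 genes the 95% interval of the fold change lay within 0.8 to 1.25, limits set after the values were seen. The intervals of 5 genes, those with an unadjusted p under 0.05, left out no change. The widest ran down to 0.49-fold, for Grin3b, and the highest upper bound was 1.44-fold, for Slc17a7.

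**Figure D1:**
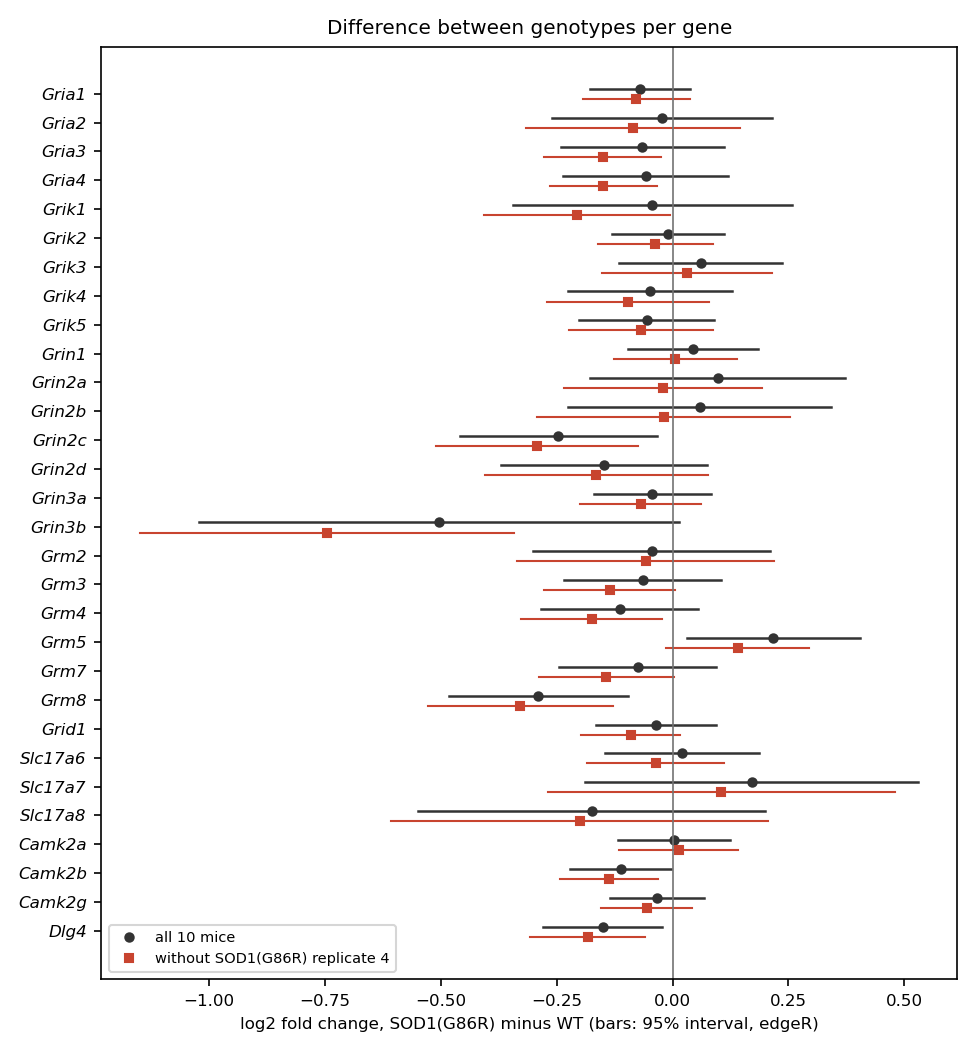
Log2 fold change (SOD1G86R minus WT) of each of the 30 genes with its 95% interval from edgeR, in all 10 mice (dark circles) and without SOD1G86R replicate 4 (red squares). With all mice 22 of 30 points lie below 0, and Grin3b has the widest interval.

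Without SOD1G86R replicate 4 the genes sat lower. The number with a negative log2 fold change was then 25 of 30, the median was -0.09, and 9 genes were lower at an unadjusted p of 0.05 (7.58% of all genes tested) and none higher (12% of all genes tested). The 9 genes were Grin3b, Grm8, Dlg4, Grin2c, Camk2b, Gria4, Gria3, Grm4 and Grik1. Still 0 of 30 passed an adjusted p of 0.01 in edgeR, where 4.55% of all genes were then higher and 0.500% lower. The smallest adjusted p of that fit was 0.0250, for Grin3b.

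AMPA receptor subunits, which form the main fast receptor, did not differ between the genotypes beyond the spread of the mice. Gria4 had the highest level per length of the 4, at 29.8 ± 1.30 CPM per kb of exon (SD, n = 5) in WT and 28.7 ± 4.14 in SOD1G86R mice, followed by Gria1, Gria3 and Gria2. Gria2, the subunit that makes the channel impermeable to calcium after editing, was at 191, 138, 171, 174 and 163 CPM in WT mice 1 to 5 and at 135, 157, 147, 193 and 192 CPM in SOD1G86R mice 1 to 5. SOD1G86R replicate 1 lay just below the WT range, replicates 4 and 5 just above it and the others within it. The log2 fold change was -0.02 (standard error 0.11, edgeR adjusted p = 0.941), with a 95% interval from 0.83 to 1.16-fold. Gria1 spanned 102 to 115 CPM in WT and 97.1 to 107 CPM in SOD1G86R mice (log2 fold change -0.07, standard error 0.05). Gria3 spanned 107 to 127 CPM in WT and 101 to 140.1 CPM in SOD1G86R mice, and Gria4 spanned 179 to 196 and 161 to 225 CPM. The highest values of Gria3 and Gria4 were both those of SOD1G86R replicate 4. With that mouse the log2 fold change was -0.06 for each of them, and without it -0.15 for each (standard errors 0.06 and 0.05, edgeR adjusted p = 0.160 and 0.124). The 95% intervals without it left out no change, at -0.276 to -0.025 for Gria3 and -0.265 to -0.034 for Gria4.

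Because each of the 4 subunits can enter the same tetramer, their proportions were set side by side as shares of the summed level per kb. In WT mice Gria4 took 42.4 ± 1.66% of the AMPA subunit level, Gria1 25.1 ± 1.22%, Gria3 17.2 ± 0.558% and Gria2 15.3 ± 1.24% (SD, n = 5). In SOD1G86R mice the shares were 42.3 ± 1.94%, 25.0 ± 2.01%, 17.0 ± 0.500% and 15.7 ± 1.84%. The Gria2 share ranged from 13.7 to 17.1% in WT and from 13.7 to 18.7% in SOD1G86R mice, so the mixture of AMPA subunit RNA did not separate the groups. These shares depend on the length assigned to each gene: by the longest coding transcript in place of merged exons, an alternative chosen after seeing the data, Gria3 took 24.7% and Gria1 20.7% in WT mice.

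Kainate receptor subunits, whose channels sit on both sides of the synapse, were led by Grik5, a high-affinity subunit that needs a partner such as Grik2 to reach the surface. Grik5 stood at 13.8 ± 1.33 CPM per kb in WT and 13.3 ± 0.666 in SOD1G86R mice, and Grik1, at 1.55 ± 0.179 and 1.51 ± 0.366, was the lowest. Grik5 made up 52.1 ± 1.21% of the kainate subunit level in WT and 51.3 ± 1.60% in SOD1G86R mice, Grik3 17.1 and 18.2%, Grik4 16.3 and 16.1%, Grik2 8.59 and 8.68%, and Grik1 5.92 and 5.80%. The log2 fold changes of the 5 genes lay between -0.06 for Grik5 and 0.06 for Grik3. Grik2, a principal channel-forming subunit, was at 28.3 to 32.1 CPM in WT and 28.5 to 31.9 CPM in SOD1G86R mice. Grik3 spanned 34.5 to 44.2 and 36.0 to 45.8 CPM, and Grik4 spanned 22.8 to 30.2 and 22.6 to 28.0 CPM. Grik1 was at 9.62, 12.5, 10.5, 9.52 and 10.1 CPM in WT mice and at 8.49, 9.12, 9.50, 14.5 and 9.14 CPM in SOD1G86R mice, where replicate 4 alone lay above the rest. Its log2 fold change was -0.04 with that mouse and -0.21 without it (standard error 0.09, edgeR adjusted p = 0.242).

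**Figure D2:**
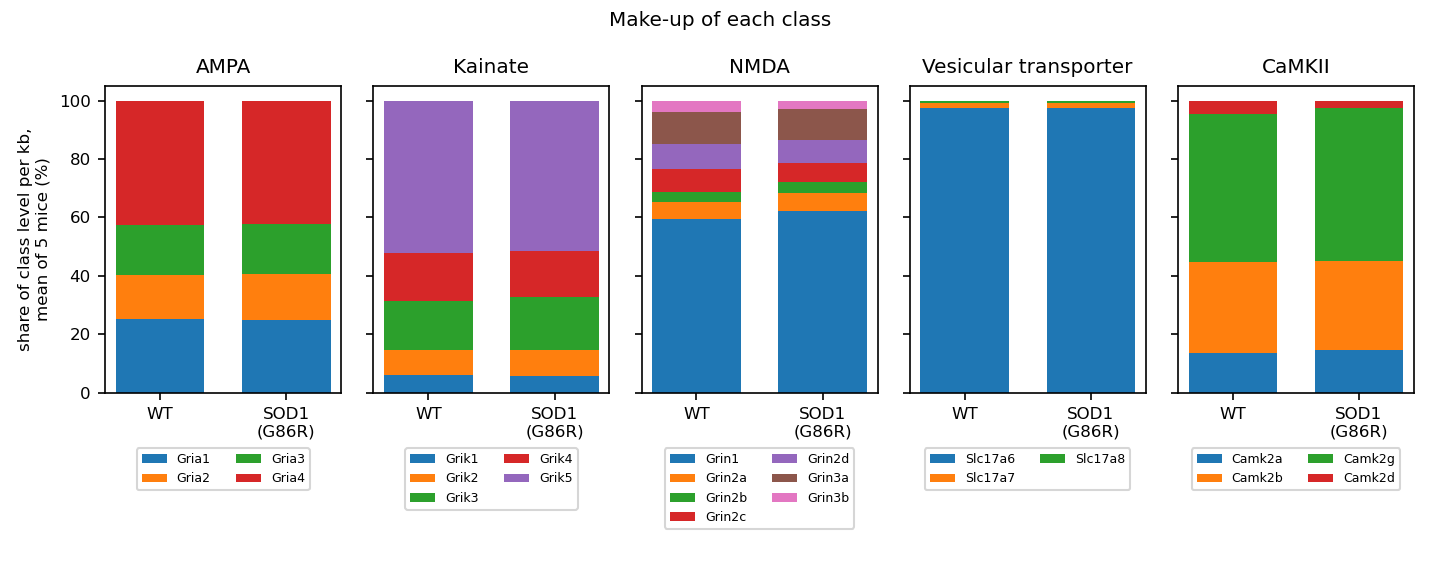
Share of each gene in the summed level per kb of exon of its class (%), as the mean of 5 mice in WT and in SOD1G86R. Camk2d, drawn at the top of the CaMKII bars, shrinks from 4.70 to 2.64%, and no other share separates the groups.

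NMDA receptors combine the obligatory subunit Grin1 with Grin2 subunits, which set the kinetics and magnesium block, or with Grin3 subunits, which bind glycine and lower calcium entry. Grin1 had the highest level of the class, at 29.6 ± 2.50 CPM per kb in WT and 30.6 ± 1.95 in SOD1G86R mice. Its log2 fold change was 0.05 (standard error 0.06, edgeR adjusted p = 0.775), and its share of the NMDA subunit level was 59.6 ± 1.25% in WT and 62.3 ± 2.09% in SOD1G86R mice, with overlapping ranges.

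Grin2c, a subunit known from cerebellar granule cells and astrocytes, had the smallest p of the class. It was at 22.2, 19.4, 21.3, 17.6 and 18.2 CPM in WT mice 1 to 5 and at 16.4, 14.7, 14.2, 18.7 and 19.1 CPM in SOD1G86R mice 1 to 5. The 3 lowest SOD1G86R mice were below every WT mouse, and the other 2 were within the WT range. The log2 fold change was -0.25 (standard error 0.10, edgeR adjusted p = 0.213) and did not pass the test. Without replicate 4 it was -0.29 (standard error 0.10, edgeR adjusted p = 0.110).

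Grin3b, the Grin3 subunit known for its expression in motor neurons, had the log2 fold change farthest from 0 of the 30 genes. It was at 8.15, 5.27, 6.68, 6.85 and 6.12 CPM in WT mice and at 5.21, 4.49, 2.60, 7.59 and 3.51 CPM in SOD1G86R mice. Of the SOD1G86R mice 4 lay below the lowest WT mouse, while replicate 4 had the second highest value of all 10. The log2 fold change was -0.50 (standard error 0.24, edgeR adjusted p = 0.308) with all mice and -0.75 (standard error 0.19, edgeR adjusted p = 0.0250) without replicate 4, neither past the adjusted p of 0.01. Summed motor neuron markers were at 135% of the WT mean in replicate 4, at 106% in replicates 1 and 2, and at 75.6 and 78.8% in replicates 3 and 5, which were also the 2 mice with the lowest Grin3b. The 8 motor neuron markers did not go 1 way: 5 had a negative and 3 a positive log2 fold change, from -0.47 to 0.66. By edgeR 1 of them passed as higher (0.866% of all genes tested) and 0 as lower (0.253%). Sensory ganglion markers were also high in replicate 4, at 645% of the WT mean. Whether RNA of sensory ganglion neurons adds to the motor neuron sum of that mouse was not tested, so this sum may not reflect motor neurons alone. Whether the motor neuron marker levels have a part in the Grin3b difference was not tested. Grin3b (chromosome 10, 79970715 to 79977190, plus strand, GRCm38) overlaps the exons of Tmem259 on the minus strand by 1059 bases, and 23.6% of its 50-base windows occur in Tmem259 or another gene on the opposite strand. Tmem259 itself was at 90.1 to 104 CPM in WT and 94.4 to 103 CPM in SOD1G86R mice, and how the counting treated strand is not given in the sources used here, so the Grin3b level is uncertain.

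The other NMDA subunits had no common direction. Grin2a, the Grin2 subunit of mature synapses, spanned 39.0 to 54.8 CPM in WT and 44.0 to 71.1 CPM in SOD1G86R mice. Its log2 fold change was 0.10 with all mice and -0.02 without SOD1G86R replicate 4, and that of Grin2b, which predominates early in development, went from 0.06 to -0.02. The sign for Grin2b was also negative without WT replicate 2, at -0.01. Grin2d, with slow kinetics, was at 24.1 to 35.8 CPM in WT and 22.3 to 28.3 CPM in SOD1G86R mice (log2 fold change -0.15, standard error 0.10), and Grin3a at 62.7 to 69.8 and 58.9 to 68.1 CPM (-0.04, standard error 0.06). Among the 4 Grin2 genes, Grin2d took 33.7% in WT and 32.6% in SOD1G86R mice of the summed level per kb, Grin2c 30.8 and 27.6%, Grin2a 22.1 and 25.1%, and Grin2b 13.3 and 14.7%. Every one of these shares overlapped between the groups. Sequence was shared with neighbours or copies in 11.6% of the 50-base windows of Grin2a, whose leading partner was not analysed here. On the opposite strand it was shared in 8.24% of those of Grin1 and 7.57% of those of Grin2d. Whether reads there were dropped or counted for either gene is not given in the sources used here. The antisense gene Grin1os was at 0.108 to 0.511 CPM in WT mice.

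Metabotropic receptors held both the member with the smallest p and the only one that was higher at an unadjusted p of 0.05. Grm8, a group III receptor that lowers transmitter release from axon terminals, was at 7.98, 10.04, 9.11, 9.95 and 9.54 CPM in WT mice 1 to 5 and at 7.48, 8.11, 7.29, 8.43 and 6.86 CPM in SOD1G86R mice 1 to 5. WT replicate 1 lay among the SOD1G86R mice, and the other 4 WT mice lay above all 5 of them. The log2 fold change was -0.29 (standard error 0.09), a mean CPM 18.1% lower. The adjusted p was 0.0935 in edgeR, 0.0499 in DESeq2 and 0.0994 in limma voom. Without SOD1G86R replicate 4 it was 0.0460 in edgeR, with a log2 fold change of -0.33. The gene lies on chromosome 6 from 27275119 to 28135178 on the minus strand (GRCm38).

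Grm5, a group I receptor that raises internal calcium through phospholipase C, had a higher mean in SOD1G86R mice. It was at 70.2, 68.2, 75.5, 82.5 and 81.7 CPM in WT mice and at 77.0, 84.1, 81.4, 106 and 91.3 CPM in SOD1G86R mice. SOD1G86R replicates 2, 4 and 5 were above the highest WT mouse, and replicates 1 and 3 were within the WT range. Its log2 fold change was 0.22 (standard error 0.09, edgeR adjusted p = 0.213), and without replicate 4 it was 0.14 (standard error 0.07, edgeR adjusted p = 0.308).

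The remaining genes of the class had lower means in SOD1G86R mice, with differences inside the spread of all 10 mice. Without SOD1G86R replicate 4 the log2 fold change of Grm4 was -0.17 (standard error 0.07, edgeR adjusted p = 0.182). Grm4, another group III receptor, spanned 37.1 to 46.0 CPM in WT and 34.3 to 44.5 CPM in SOD1G86R mice (log2 fold change -0.11, standard error 0.08). Grm7, a group III receptor of the active zone, spanned 37.6 to 43.1 and 34.0 to 45.2 CPM (-0.07, standard error 0.08). Grm3, a group II receptor also made by astrocytes, was at 30.9 to 35.3 and 29.0 to 38.7 CPM (-0.06, standard error 0.08). Astrocyte markers were at 149 to 188% of the WT mean as a sum in the SOD1G86R mice other than replicate 4. The median log2 fold change of the 6 markers without that replicate was 0.27. In that fit 3 of 6 were higher at an unadjusted p of 0.05 (12% of all genes tested). At an adjusted p of 0.01 in edgeR 3 of 6 were higher (4.55% of all genes tested). Grm3 was at 29.0 to 33.7 CPM in those 4 mice. Grid1, a delta receptor that binds synaptic organisers rather than acting as a glutamate channel, was at 48.1 to 51.0 and 44.6 to 55.2 CPM. Grm2, the other group II receptor, was near the bottom of the range at 2.58 to 3.34 CPM in WT and 2.50 to 3.22 CPM in SOD1G86R mice, and 8.53% of its 50-base windows also occur on the opposite strand of other genes.

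**Figure D3:**
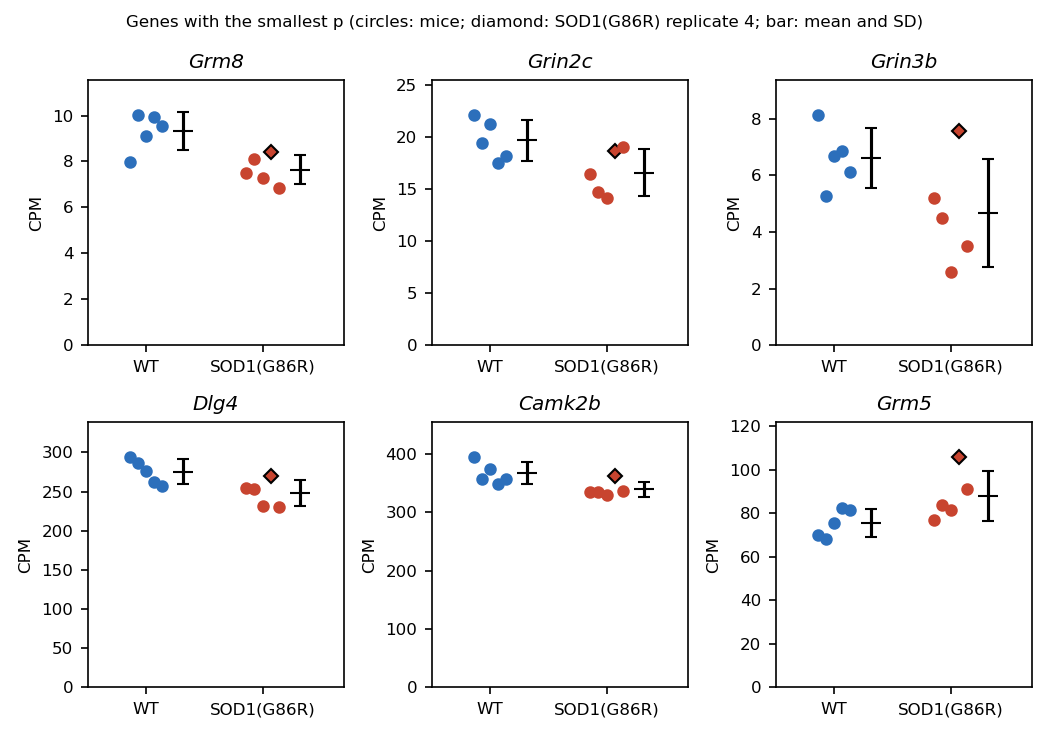
CPM in each mouse (circles, with SOD1G86R replicate 4 as a diamond) and mean with SD (bars) for the 6 genes with the smallest p; each axis starts at 0. In every panel the values of the genotypes overlap, and in all but Grin2c the diamond is the highest of the SOD1G86R mice.

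On the presynaptic side, transcripts of the vesicular glutamate transporters were almost wholly Slc17a6 (VGLUT2), the transporter of spinal interneurons. Slc17a6 was at 198, 223, 225, 229 and 239 CPM in WT mice 1 to 5 and at 194, 235, 231, 262 and 211 CPM in SOD1G86R mice 1 to 5. The log2 fold change was 0.02 (standard error 0.08, edgeR adjusted p = 0.921), with a 95% interval from 0.90 to 1.14-fold, and it was -0.04 without replicate 4. Per kb it made up 97.6 ± 0.0806% of the 3 transporters in WT and 97.6 ± 0.296% in SOD1G86R mice.

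Slc17a7 (VGLUT1), which in the cord marks the terminals of corticospinal and of large sensory fibres whose cell bodies lie elsewhere, was at 2.56 to 4.31 CPM in WT mice and at 3.16, 3.31, 4.78, 4.80 and 4.33 CPM in SOD1G86R mice. SOD1G86R replicates 3, 4 and 5 were above every WT mouse, yet the log2 fold change of 0.17 had a standard error of 0.17 (edgeR adjusted p = 0.654). Slc17a8 (VGLUT3) was the least abundant of the 30 genes, at 1.21 to 1.98 CPM in WT and 1.10 to 1.55 CPM in SOD1G86R mice (log2 fold change -0.17, standard error 0.17).

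Behind the receptors, the genes of the kinase and scaffold were among the most abundant. Camk2g had the highest level per length of all 30 genes, at 64.6 ± 2.16 CPM per kb in WT and 63.2 ± 2.37 in SOD1G86R mice. Slc17a6, at 41.3 ± 2.79, and Camk2b, at 40.2 ± 2.05, came next in WT mice and were within each other's spread, followed by Gria4 and Grin1, which were also within each other's spread. The lowest levels were those of Slc17a7 (0.670 ± 0.133), Grm2 (0.602 ± 0.0625) and Slc17a8 (0.333 ± 0.0712). By the longest coding transcript Camk2g remained the highest and Slc17a8 the lowest, and Grin1 went from rank 5 to rank 3.

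**Figure D4:**
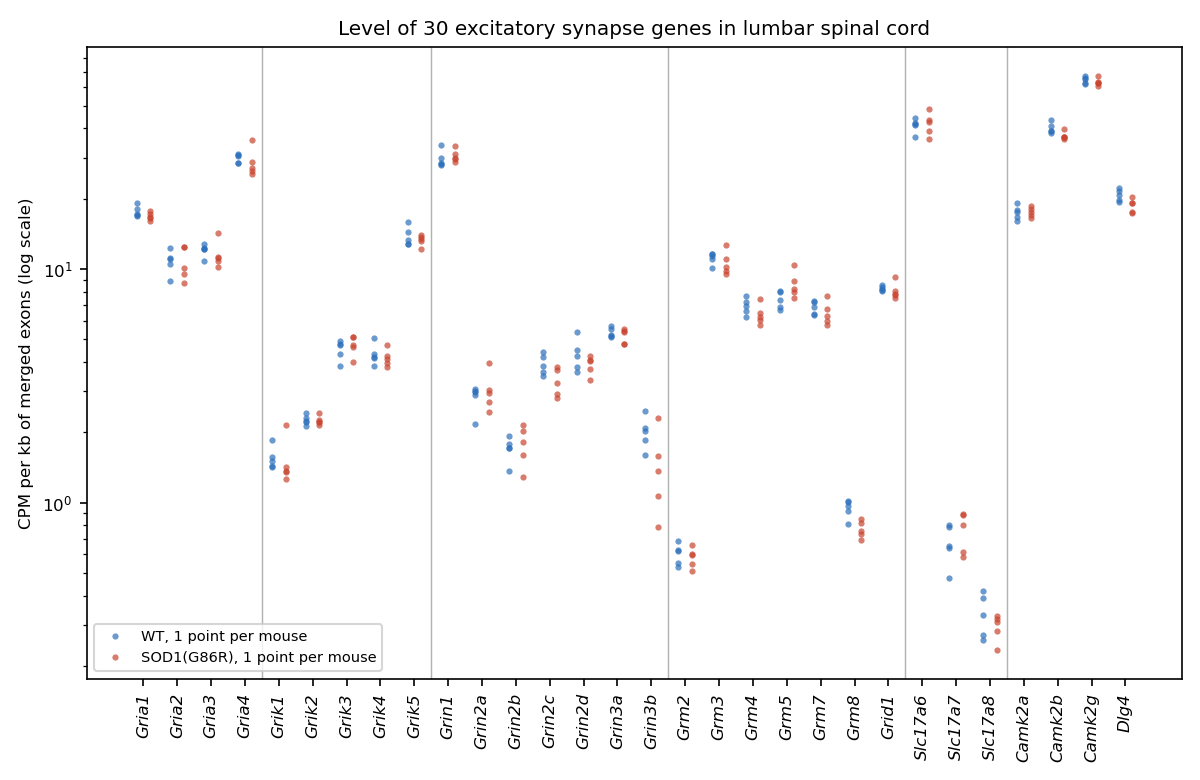
Level of each gene in each mouse as CPM per kb of merged exons on a log axis, with WT in blue and SOD1G86R in red and vertical lines between classes. The genes span from 0.333 CPM per kb (Slc17a8) to 64.6 (Camk2g) in WT, and the values of the genotypes overlap in all 30.

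Dlg4 encodes PSD-95, the scaffold that anchors NMDA receptors and, through auxiliary subunits, AMPA receptors. It was at 295, 287, 276, 262 and 257 CPM in WT mice and at 254, 253, 232, 270.0 and 231 CPM in SOD1G86R mice. The 4 SOD1G86R mice other than replicate 4 were below the lowest WT mouse, 2 of them narrowly. The log2 fold change was -0.15 (standard error 0.06, edgeR adjusted p = 0.209), and without replicate 4 it was -0.18 (standard error 0.06, edgeR adjusted p = 0.0760).

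Camk2b, the CaMKII gene that binds actin in spines, was at 395, 357, 375, 348 and 357 CPM in WT mice and at 334, 334, 329, 362 and 336 CPM in SOD1G86R mice. As with Dlg4, the SOD1G86R mice other than replicate 4 all lay below the WT range. Its log2 fold change was -0.11 (standard error 0.05, edgeR adjusted p = 0.279), and without replicate 4 it was -0.14 (standard error 0.05, edgeR adjusted p = 0.124). Camk2a, the forebrain-rich form, had nearly equal means, at 131 ± 8.95 CPM in WT and 131 ± 5.82 CPM in SOD1G86R mice, with a 95% interval from 0.92 to 1.09-fold. Camk2g spanned 399 to 430.4 and 389 to 429 CPM (log2 fold change -0.03, standard error 0.05).

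The remaining gene of the kinase family, Camk2d, is not among the 30 but was the one gene of the excitatory synapse lists to pass the test. It was at 137, 131, 139, 135 and 135 CPM in WT mice 1 to 5 and at 65.3, 71.5, 66.8, 78.2 and 78.2 CPM in SOD1G86R mice 1 to 5. The lowest WT mouse, at 131 CPM, lay above the highest SOD1G86R mouse, at 78.2 CPM. Camk2d fell by 0.91 on the log2 scale (standard error 0.06, edgeR adjusted p = 1.94e-06). Its share of the summed level per kb of the 4 CaMKII genes was 4.70 ± 0.180% in WT and 2.64 ± 0.166% in SOD1G86R mice, the only share of any class whose groups did not overlap. By the longest coding transcript the same shares were 9.68 and 5.59%. Camk2d lies on chromosome 3 from 126596302 to 126846326 (GRCm38). Of the 60 other genes tested within 5 Mb of it 19 also fell by edgeR (31.7%) and 3 rose. Over all 16974 genes tested 43 fell (0.253%) and 0.866% rose, so the fall of Camk2d was shared with many neighbours. The part of this neighbourhood in the Camk2d value was not tested. Gria2, the only one of the 30 genes on this chromosome, lies 45.8 Mb away. Of the 36 other genes tested within 5 Mb of Gria2 none fell or rose by edgeR, a window too small to set against those shares.

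Read mouse by mouse, the 30 genes moved together in some libraries. The median over genes of the log2 level relative to the WT mean was -0.13, -0.09, -0.16, 0.14 and -0.07 in SOD1G86R mice 1 to 5 and ran from -0.07 to 0.09 in WT mice. SOD1G86R replicate 4 had the highest value of its group in 23 of 30 genes and the lowest in 0. It lay above the WT range in 13 genes and below it in 0. By contrast 15 genes lay below the WT range in SOD1G86R replicate 1, 6 in replicate 2, 18 in replicate 3 and 12 in replicate 5. Above that range lay 0, 1, 1 and 5 genes in the same mice. The same counts over all genes were not taken, so these counts cannot be set against other genes. Among the WT mice, replicate 1 had the highest value in 16 genes and replicate 2 the lowest in 13. Summed neuronal markers were also highest in replicate 4 among the SOD1G86R mice, at 114% of the WT mean against 81.9 to 94.1%, as were presynaptic release genes, at 110% against 90.0 to 95.8%. Auxiliary subunit genes (110% against 92.0 to 100%) and postsynaptic scaffold genes (106% against 90.1 to 97.9%) were also highest there. So were genes of editing, co-agonist and CaMKII partners (103% against 86.6 to 95.7%). Markers of inhibitory neurons (113% against 95.0 to 106%) and of motor neurons (135% against 75.6 to 106%) showed the same. Some other sums did not follow this split. Markers of excitatory dorsal horn interneurons were at 96.4% in replicate 4 and at 91.1 to 130.2% in the other 4, and genes of glutamate uptake and recycling at 105% against 94.2 to 109%. Among the other 4 mice, replicate 5 had the lowest neuronal sum (81.9%) and the median over the 30 genes nearest to 0.

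**Figure D5:**
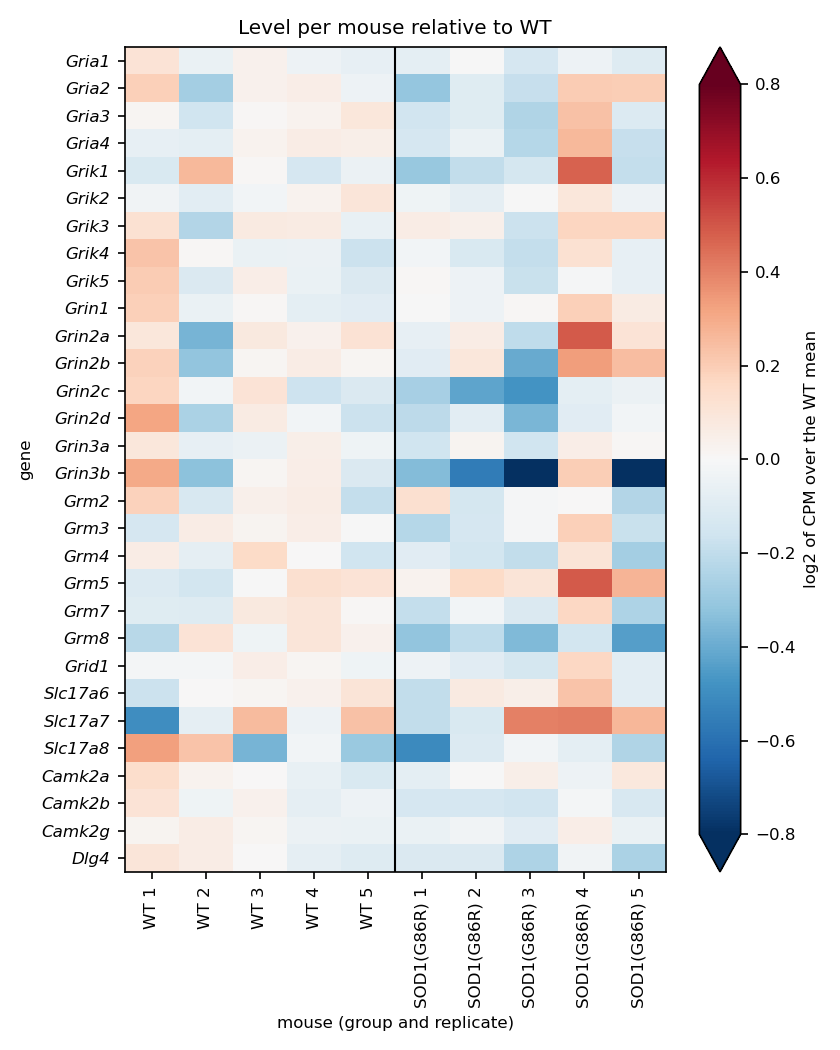
Level of each of the 30 genes (rows) in each mouse (columns) as log2 of CPM over the WT mean, from blue (lower) to red (higher), with the colour scale ending at 0.8 in either direction. SOD1G86R replicate 4 is mostly red, with 13 genes above the WT range, and SOD1G86R replicates 1 and 3 are mostly blue, with 15 and 18 genes below it.

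The rest of the excitatory synapse was counted from 5 lists of 88 further genes, all of which were tested: auxiliary subunits, postsynaptic scaffold, presynaptic release, glutamate uptake, and editing, co-agonist and CaMKII partners. edgeR called 1 of the 88 lower, Camk2d (0.253% of all genes were lower), and 0 higher (0.866% of all genes). The median log2 fold change over the lists was -0.04, against -0.01 for all genes. At an unadjusted p of 0.05, 3 of 88 were higher, against 10.8% of all genes, and 14 of 88 lower, against 6.33%. The sign was negative for 56 and positive for 32, where 52.3% of all genes were negative. DESeq2 called 1 higher and 2 lower (3.67% and 0.544% of its genes), and limma voom 0 higher and 1 lower (0.212% and 0.194%). Without SOD1G86R replicate 4 edgeR called the same numbers, 0 higher and 1 lower, and at an unadjusted p of 0.05 placed 3 higher (12% of all genes) and 20 lower (7.58% of all genes). The median was then -0.09 for the 88 genes and -0.01 for all genes.

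The 2 further genes called by DESeq2 alone, named here after their values were seen, were Neto2 and Syn2. Neto2, an auxiliary subunit of kainate receptors, was at 0.26 on the log2 scale, standard error 0.06, with an adjusted p of 0.0252 in edgeR and 0.00249 in DESeq2. Syn2, a synapsin of the vesicle pool, was at -0.18 on the same scale, standard error 0.04, with an adjusted p of 0.0384 in edgeR and 9.60e-04 in DESeq2. Of the 16 auxiliary subunit genes 1 was higher and 4 were lower at an unadjusted p of 0.05, of the 28 scaffold genes 2 and 4, of the 20 presynaptic release genes 0 and 2, of the 12 genes of glutamate uptake and recycling 0 and 2, and of the last list of 12 genes 0 and 2. Over all genes the same limit placed 10.8% higher and 6.33% lower.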

How the data were processed

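Total RNA was extracted from fresh-frozen lumbar cord and sequenced as 1 library per mouse, 5 per genotype. The authors aligned reads to mm10 with TopHat2 2.0.14 and deposited raw counts per gene made with HTSeq 0.6.1, per their methods and the submitters' processing notes. For the library kit, strand setting and any read filter, no source used here gives details. The table held 32506 genes, of which 32247 matched GENCODE M21 (GRCm38), the source of positions, exon lengths and transcript sequence, and 0 columns of no sample. No 2 libraries agreed within sampling noise (lowest chi-square per degree of freedom 9.53).

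Counts were filtered by group (filterByExpr), scaled by TMM and tested with edgeR 4.0.16 in R 4.3.3 (robust quasi-likelihood F test, Benjamini-Hochberg over 16974 genes, adjusted p of 0.01). The standard error is the log2 fold change over the root of F. CPM use TMM library sizes, and levels per kb divide by merged exons. DESeq2 1.42.0, limma voom (limma 3.58.1), other scalings, filters and thresholds, a replicate block and leaving out each mouse were alternatives. The 30 genes and all lists were chosen with earlier results of these data known. All 30 genes are named, with genes of the other synapse lists past the test, and Camk2d as the remaining CaMKII gene. Counts limit the precision most for Slc17a8, Slc17a7 and Grm2.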

Additional observations from a re-analysis of the deposited data

Results flagged for a closer look

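Each group of 5 mice was searched for a single mouse set apart from the other 4, by the gap to its nearest neighbour over the range of the group. Among 62 groups, from the 30 genes and Camk2d in each genotype, 4 stood out. Chance alone gives about 1 in 20 groups, and 4 of 62 is near that share. The groups come from the same 10 mice and are not independent. SOD1G86R replicate 4 was the mouse in 3 of them: Gria3 was at 140.1 CPM there against 111 CPM in the next mouse, Grik1 at 14.5 against 9.50 CPM, and Camk2b at 362 against 336 CPM. The other was Grin2a in WT replicate 2, at 39.0 CPM against 51.8 CPM in the next lowest WT mouse. In SOD1G86R replicate 4 the markers of sensory ganglion neurons summed to 645% of the WT mean, and their part in these values was not tested.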

How the results depend on the processing

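With edgeR at an adjusted p of 0.01, 147 of all genes were higher and 43 lower. At that threshold 0 of the 30 synapse genes passed under any alternative. A threshold of 0.05 was applied to the main fit alone, where 0 of the 30 passed. Under 0.05 were Grm8 in DESeq2 (adjusted p = 0.0499), and Grin3b (0.0250) and Grm8 (0.0460) in edgeR without SOD1G86R replicate 4. DESeq2 gave 722 higher and 107 lower over all genes, limma voom 36 higher, the fit without robust estimation 254 higher, and a threshold of 0.05 gave 654 higher and 127 lower. Leaving out 1 mouse gave 12 to 782 higher and 19 to 86 lower, with the high ends without SOD1G86R replicate 4. The cause of these shifts was not tested. The median log2 fold change of the 30 genes stayed negative, from -0.09 without SOD1G86R replicate 4 to -0.02 without SOD1G86R replicate 3. With the replicate block edgeR called 109 genes higher and 31 lower and 0 of the 30. No pairing of the mice by number was evident: the same-number correlations of deviations were 0.05, 0.26, -0.14, 0.06 and -0.37. Those of other numbers ran from -0.32 to 0.41. These few correlations cannot show whether the numbers follow litters.

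Of the 558 values of single genes under alternatives, 20 changed sign among 9 genes. Camk2a was at -0.0035 with upper quartile scaling. Leaving out 1 mouse, the log2 fold change ran from -0.086 to 0.041 for Gria2, from -0.21 to 0.028 for Grik1, from -0.037 to 0.015 for Grik2, from -0.096 to 0.011 for Grik4, from -0.020 to 0.16 for Grin2a, from -0.019 to 0.15 for Grin2b, from -0.092 to 9.65e-05 for Grm2, from -0.037 to 0.072 for Slc17a6 and from -0.026 to 0.037 for Camk2a. Gene length set by the longest coding transcript, chosen after seeing the data, moved the WT shares of Grin3b from 4.02 to 2.17% of the NMDA level, of Grin2c from 7.88 to 4.35%, of Grin2b from 3.42 to 1.90%, of Grin2a from 5.68 to 3.74% and of Grin2d from 8.62 to 5.68%.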
